A study of Mus musculus with 20 samples.

Results

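The 9 genes described here are switched on by the ERK branch of growth factor signalling, and most of them act back on it: the phosphatase genes Dusp6 and Dusp4, the Sprouty genes Spry1, Spry2 and Spry4, the Spred genes Spred1 and Spred2, and the ETS transcription factor genes Etv4 and Etv5. They are 9 of the 55487 genes in the count table and were matched by gene identifier and symbol. The group was selected on the counts of these same libraries, after Dusp6 had been seen to be higher in the somata labelled KO than in the WT somata. The genotype difference in somata is therefore given for these genes as a description, without p-values. Where counts past the test threshold are printed for it, nothing is read from them.

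The libraries are bulk RNA-seq of mouse subcerebral projection neurons, which project from cortex to the brainstem and spinal cord, at postnatal day 1. There were 4 groups of 5 libraries: somata and growth cones (the tips of growing axons) of WT neurons, and somata and growth cones of neurons with the genotype label Bcl11b KO. The labels give brainstem and spinal cord as the tissue of the growth cones. How the Bcl11b allele was made, in which cells it was lost, how neurons and growth cones were labelled and sorted, and whether animals were pooled are not given in the sources used here. Nothing in the labels says that libraries of a group came from separate animals, so p-values measure the spread between these libraries, part of which may be technical.

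In the ERK pathway, a growth factor such as an FGF or a neurotrophin binds a receptor tyrosine kinase, the small GTPase Ras activates a RAF kinase, and the kinases MEK and ERK follow in turn. ERK activates transcription factors of the ETS family, and the genes they switch on include inhibitors that damp the cascade at several levels. Sprouty proteins act near the receptor and Ras, Spred proteins bring the Ras-inactivating protein neurofibromin to the membrane, and the dual-specificity phosphatases DUSP6 (in the cytoplasm) and DUSP4 (in the nucleus) remove phosphate from ERK itself. Because their transcripts follow ERK activity, these genes are widely used as readouts of FGF and ERK signalling in developing tissue.

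The start-site sequences of Dusp6 and Etv5 are shown because these genes carry the genotype difference in somata described below. RefSeq windows (GRCm38.p6, 250 bases before to 50 bases after a transcript start) were given for 6 of the 9 genes, 7 windows in all; Dusp4, Spry4 and Etv4 had none. Each line reads 5′ to 3′ on the gene's strand, and the capitals mark GGAA, the core that ETS factors recognise, or its reverse complement TTCC. The Dusp6 window is chr10:99262981-99263280 on the plus strand, and the Etv5 windows are chr16:22438319-22438618 and chr16:22439521-22439820 on the minus strand.
Dusp6: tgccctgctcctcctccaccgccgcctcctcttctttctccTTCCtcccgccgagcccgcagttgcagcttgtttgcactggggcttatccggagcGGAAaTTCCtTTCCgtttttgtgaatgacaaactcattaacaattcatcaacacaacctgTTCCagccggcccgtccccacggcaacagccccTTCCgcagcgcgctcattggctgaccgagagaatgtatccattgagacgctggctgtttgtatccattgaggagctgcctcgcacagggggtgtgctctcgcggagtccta
Etv5, first window: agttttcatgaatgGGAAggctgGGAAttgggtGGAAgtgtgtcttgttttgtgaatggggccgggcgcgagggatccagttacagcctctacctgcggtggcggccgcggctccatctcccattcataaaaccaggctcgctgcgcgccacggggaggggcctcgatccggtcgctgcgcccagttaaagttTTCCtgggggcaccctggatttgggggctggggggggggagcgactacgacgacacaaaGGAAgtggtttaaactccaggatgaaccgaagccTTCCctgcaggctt
Etv5, second window: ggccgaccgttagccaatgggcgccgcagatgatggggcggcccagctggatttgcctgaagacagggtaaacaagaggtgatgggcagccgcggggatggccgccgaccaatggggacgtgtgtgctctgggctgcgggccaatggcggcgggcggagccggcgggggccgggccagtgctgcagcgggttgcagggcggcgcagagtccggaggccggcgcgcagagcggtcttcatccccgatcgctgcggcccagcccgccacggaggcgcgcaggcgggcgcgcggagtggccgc
The Dusp6 window holds 6 cores and the first Etv5 window 6, while the second Etv5 window, with 74% G and C, holds 0. Among all 32851 mouse windows of the same length, 96.0% hold at least 1 core, the median is 3, and 15.7% hold 6 or more. The longer ETS site CCGGAAG, the AP-1 site TGANTCA and the CArG box of serum response factor, each searched on both strands, were in 0 of the 7 windows. Of all windows, 8.86% hold that ETS site, 7.81% the AP-1 site and 1.63% the CArG box. CCGGAAG contains the GGAA core, so those searches overlap. These are matches of letters in 1 stretch of each gene and say nothing of whether a factor binds there.

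On GRCm38 coordinates as the table gives them, Dusp6 lies on chromosome 10 from 99263231 to 99267489 (plus strand), Dusp4 on chromosome 8 from 34807297 to 34819894 (plus), Spry1 on chromosome 3 from 37639947 to 37644598 (plus), Spry2 on chromosome 14 from 105891947 to 105896819 (minus) and Spry4 on chromosome 18 from 38586247 to 38601415 (minus). Spred1 lies on chromosome 2 from 117121374 to 117182279 (plus), Spred2 on chromosome 11 from 19924375 to 20024026 (plus), Etv4 on chromosome 11 from 101769742 to 101785371 (minus) and Etv5 on chromosome 16 from 22381309 to 22439719 (minus).

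Depth, RNA input and labels were checked before the genes were compared. RNA input was given as a range, 0.19 to 3.1 ng for growth cone libraries and 1.8 to 3.1 ng for soma libraries of either label. Libraries held 26382991 to 29323028 counts in WT growth cones, 21657575 to 27723067 in growth cones labelled KO, 18962308 to 36059112 in the WT somata and, in the somata with the KO label, 35243688 to 51205154. Bcl11b, the targeted gene, was not lower under the KO label: it stood at 699.8 ± 129.6 CPM (the gene's counts scaled to the size of the library) in WT somata (SD, n = 5) and at 1150.3 ± 56.7 CPM in somata labelled KO, a log2 difference of 0.71 (edgeR adjusted p = 0.0153). In growth cones its mean was 101 CPM in WT and 102 CPM under the KO label. Counts over the whole gene cannot show whether an exon is missing, and the libraries are called by their labels throughout. The 10 marker genes of subcerebral projection neurons summed to 1723 to 2257 CPM in somata and 651 to 976 CPM in growth cones.

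CPM values carry edgeR's trimmed mean of M values (TMM) scaling over all 20 libraries, and levels are compared between genes as CPM per kilobase of exon. Values of single libraries follow the order of their numbers in the labels, which are 12, 14, 22, 25 and 26 for WT somata, 14, 15, 22, 25 and 26 for somata labelled KO, and 7 to 11 for growth cones of either label. Per kilobase, Dusp6 was the highest of the 9 genes and Etv5 came next in each of the 4 groups. In WT somata the means were 25.5 CPM per kilobase for Dusp6 and 14.5 for Etv5, followed by Spred1 at 7.38, Dusp4 at 6.59, Spred2 at 2.91, Spry1 at 2.73, Spry4 at 0.778, Etv4 at 0.511 and Spry2 at 0.413. In single WT soma libraries Etv5 did not overlap Dusp6 above it or Spred1 below it, and Spry1 did not overlap Spry4. Spred1 and Dusp4 overlapped, as did Dusp4 and Spred2, Spred2 and Spry1, Spry4 and Etv4, and Etv4 and Spry2. The somata labelled KO gave 52.1 for Dusp6, 27.5 for Etv5, 7.92 for Dusp4, 6.53 for Spred1, 3.36 for Spred2, 1.87 for Spry1, 1.43 for Spry4, 0.811 for Spry2 and 0.463 for Etv4.

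In WT growth cones the order ran from Dusp6 at 13.3 CPM per kilobase through Etv5 at 7.74, Spred1 at 6.28, Spry2 at 6.10, Spry1 at 5.50, Spred2 at 5.16 and Etv4 at 4.85 to Spry4 at 1.91 and Dusp4 at 0.700. Every neighbouring pair in that order overlapped in single libraries. Growth cones labelled KO gave the same leading trio, with Dusp6 at 12.2, Etv5 at 10.5 and Spred1 at 7.63 CPM per kilobase, and again every neighbouring pair overlapped. Dusp4 stood in the upper part of the order in somata and at or next to the bottom in growth cones, whereas Spry2 and Etv4 were the lowest pair in both soma groups.

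**Figure D1:**
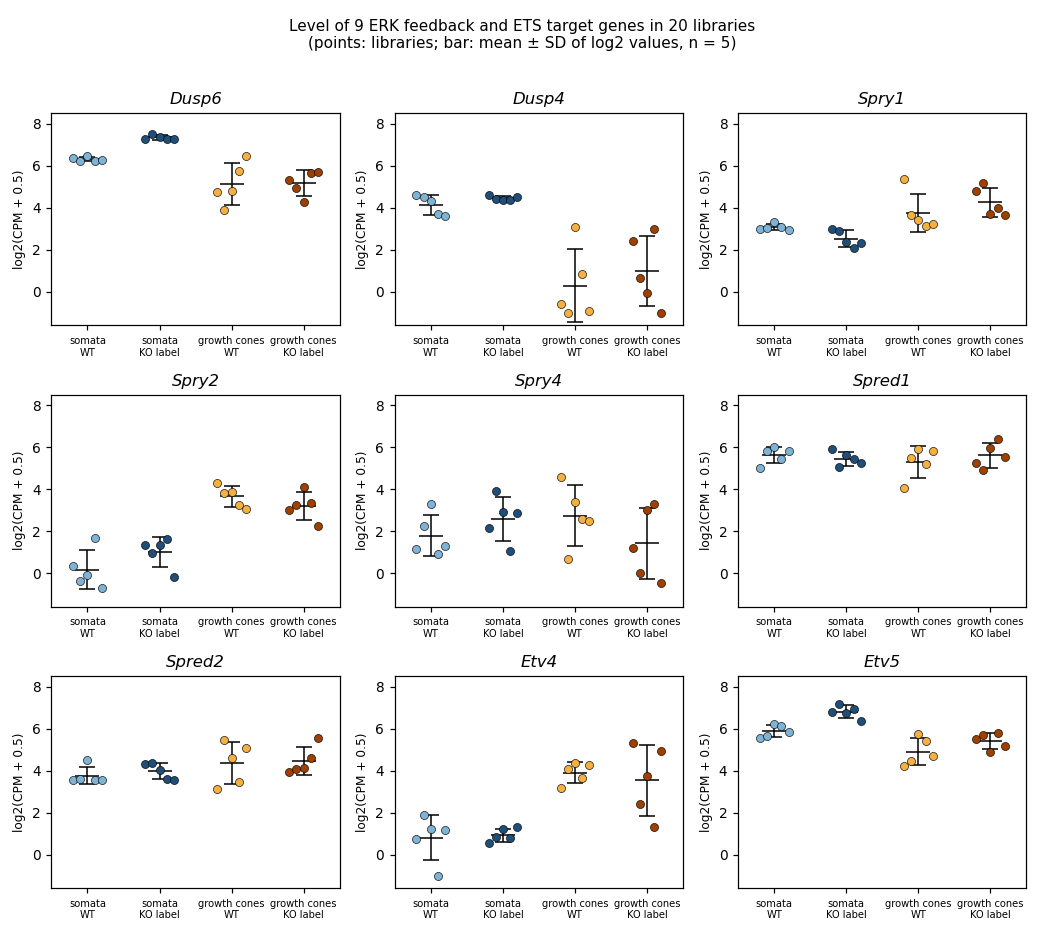
Level of each of the 9 genes as log2(CPM + 0.5), vertical axis, in each library of the 4 groups, horizontal axis; points are libraries and bars the mean ± SD (n = 5). Dusp6 and Etv5 are higher in each soma library labelled KO than in each WT soma library, Etv4 and Spry2 are higher in each growth cone library than in each soma library of the same label, and Dusp4 shows the reverse.

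Dusp6 and Etv5 were the genes of this group that stood apart between the somata. Dusp6, the cytoplasmic ERK phosphatase, was at 83.7, 74.7, 88.9, 74.9 and 76.9 CPM in the WT somata and at 153, 185, 168, 155 and 154 CPM in the somata labelled KO. The groups did not overlap, and the highest library was 1.19-fold above the lowest in WT and 1.21-fold under the KO label. The log2 difference was 1.03 ± 0.10 (SE), a 2.04-fold higher level under the KO label. In bulk RNA, more cells of a type and more RNA per cell cannot be told apart.

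Etv5, an ETS factor that is both a target and an effector of FGF signalling, was at 47.0, 49.9, 74.8, 69.0 and 56.5 CPM in WT somata and at 110.2, 145, 107, 122 and 81.3 CPM in somata labelled KO. Here too each library labelled KO was above each WT library, although the highest WT and the lowest KO value lay close together. On the log2 scale the difference was 0.92 ± 0.17, or 1.90-fold. Of the 14911 genes tested in somata with edgeR, 0.731% passed a false discovery rate of 0.05, and 0.416% did so with a higher level under the KO label. Of the 9 genes, 2 were past that threshold, both higher. Groups of single libraries that did not overlap were seen in 3.13% of all genes and in 2 of the 9. Since this contrast was taken as the one that brought the group forward, nothing is read from these counts. With each library left out in turn the log2 difference ran from 0.98 to 1.07 for Dusp6 and from 0.82 to 1.02 for Etv5, and with the replicate number as a block it was 1.00 and 0.75. The count of 2 fell to 1 with the block and in 8 of the 10 fits with a library left out, and to 0 with all 20 libraries in the fit, and nothing is read from these counts either.

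**Figure D2:**
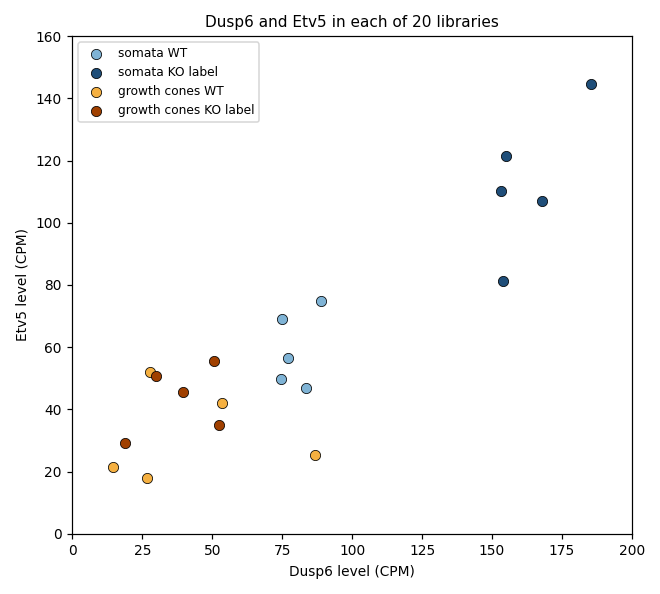
Etv5 level (CPM, vertical axis) against Dusp6 level (CPM, horizontal axis), 1 point per library, coloured by group. In somata the 5 libraries labelled KO lie above the 5 WT libraries for both genes, and in growth cones the libraries of both labels overlap.

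The other 7 genes overlapped between the soma groups. Dusp4, the nuclear ERK phosphatase, was at 23.7, 22.7, 19.7, 12.3 and 11.8 CPM in WT somata and at 24.3, 20.7, 20.5, 20.4 and 22.6 CPM in somata labelled KO. Its WT libraries fell into a higher trio and a lower pair, and all KO-labelled libraries were near the higher trio. This gave a log2 difference of 0.26 ± 0.24.

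Among the Sprouty genes, Spry1 was at 7.55, 7.64, 9.39, 7.89 and 7.22 CPM in WT somata and at 7.48, 6.93, 4.64, 3.69 and 4.50 CPM under the KO label. That is a log2 difference of -0.55 ± 0.33, opposite in sign to that of Dusp6, with 4 of 5 libraries labelled KO below every WT library. Of the 2906 exon bases of Spry1, 710 (24.4%) are shared with a gene on the opposite strand. The cDNA kit named in the labels does not mark strand, so reads from either gene cannot be told apart over those bases. The other 8 genes share no exon base with another gene. Spry2 was near the floor of detection in somata, at 0.115 to 2.72 CPM in WT (2 to 91 counts) and 0.373 to 2.60 CPM under the KO label (12 to 105 counts), with a log2 difference of 0.96 ± 0.84. Spry4 ranged from 1.41 to 9.16 CPM in WT somata and from 1.61 to 14.7 CPM under the KO label, with a log2 difference of 0.87 ± 0.67. The ranges of both genes overlapped widely between the labels.

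The Spred genes overlapped over most of their range. Spred1 ranged from 31.6 to 63.6 CPM in WT somata and from 33.2 to 60.4 CPM under the KO label, and its log2 difference was -0.18 ± 0.22. Spred2 ranged from 11.2 to 21.9 and from 11.1 to 19.7 CPM, with a log2 difference of 0.20 ± 0.28. Etv4, an ETS factor of the same subfamily as Etv5, was low in somata of either label, at 0 to 3.15 CPM in WT and 0.970 to 1.96 CPM under the KO label. It differed by -0.15 ± 0.93 on the log2 scale.

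Counts and markers that moved with the soma genotype stand beside these values. Of the somata labelled KO, 4 of 5 were sequenced more deeply than every WT soma library, and with the log2 library total as a covariate the log2 difference was 0.97 for Dusp6 and 0.79 for Etv5. The 10 interneuron markers had a summed level of 121 to 202 CPM in the WT and 410.0 to 545 CPM in the KO-labelled somata, and 1 of the 8 tested, Npy, rose (log2 difference 2.06 ± 0.15, edgeR adjusted p = 0.000196). The other 9 markers together were at 20.8 to 64.8 CPM in the WT and 12.4 to 57.9 CPM in the KO-labelled somata. The 10 astrocyte markers summed to 24.3 to 210.1 CPM and to 112 to 280 CPM, with 9 of 9 tested above 0 in log2 difference and 0 past the threshold. Library by library these sums were 24.3, 98.0, 106, 210.1 and 209 CPM in the WT and 190.3, 179, 112, 279.9 and 131 CPM in the KO-labelled somata, in the order in which Dusp6 and Etv5 are given above. The 10 progenitor markers summed to 36.4 to 138 CPM and to 61.6 to 176 CPM, with 0 of 8 tested past the threshold. Markers of oligodendrocyte lineage gave 0 of 6, of microglia 0 of 9 and of vessels 0 of 2, none of the Hox genes was tested, and of the 10 projection neuron markers 2 were higher and 3 lower. No gene of the astrocyte, progenitor or interneuron lists was at 0 in all libraries of a soma group. The part of astrocyte, progenitor and interneuron RNA in the Dusp6 and Etv5 difference was not tested.

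Few genes of the rest of the pathway passed the threshold between the somata. Of the 26 core genes of the cascade (Ras, RAF, MEK and ERK genes and their adaptors), all were tested and 0 passed, with a median log2 difference of -0.06 beside -0.0030 over all genes. Among growth factor receptors 0 of 16 tested passed, and among ligands 0 of 14. Immediate early genes, which answer ERK within minutes, gave 0 of 19. Of these 19, 13 were above 0, with a median of 0.23 and a lowest edgeR adjusted p of 0.0514. The other MAP kinase phosphatases gave 0 of 5. Other delayed ERK targets gave 0 of 10, with 9 of the 10 above 0 and a median of 0.49. Over all genes tested, 7386 of 14911 were above 0. Medians of the cell type marker lists ran from -0.26 for projection neurons to 0.95 for vessels, with 0.39 for astrocytes and 0.41 for progenitors. Of the delayed targets, Phlda1 (means of 0.55 and 0.67 CPM in WT and KO-labelled somata) and Ccnd1 (0.66 and 0.92 CPM) were low. At an unadjusted p under 0.05, 8.57% of all genes passed in this contrast. One of the 11 other ETS factors tested rose: Etv1, which belongs to the same subfamily as Etv4 and Etv5 and marks layer 5 cortical neurons.

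In the WT somata Etv1 was at 51.4, 59.6, 81.7, 79.9 and 138 CPM, and the KO-labelled somata held 298, 285, 306, 241 and 227 CPM. All of the latter were above all of the former. The log2 difference was 1.73 ± 0.23 (edgeR adjusted p = 0.00475), or 3.31-fold. It passed the threshold in 19 of 20 alternatives and missed it with the replicate number as a block. Of the 3 genes of that ETS subfamily, Etv1 and Etv5 were thus higher in each soma library labelled KO, and Etv4 did not exceed 3.15 CPM in either group. Groups of single libraries that did not overlap were seen in 3.13% of all genes tested in somata. Etv5 belongs to the group that this contrast brought forward, and the ETS list was chosen with earlier results of these data known. Nothing is therefore read from the subfamily as a set.

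**Figure D3:**
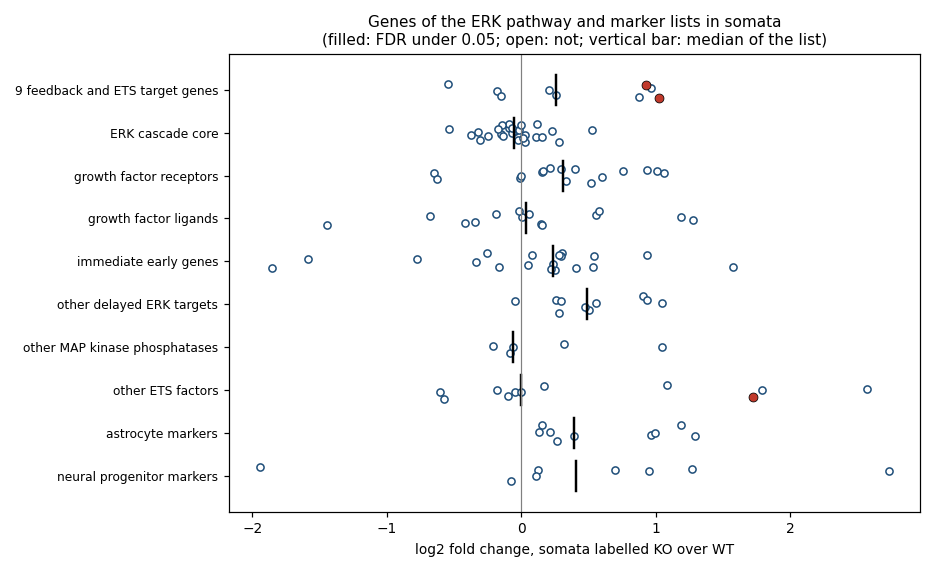
Log2 difference between somata labelled KO and WT somata (horizontal axis) for the 9 genes and for 9 lists of pathway and marker genes (vertical axis); each point is a gene tested by edgeR, filled when past a false discovery rate of 0.05, and the vertical bar is the list's median. Dusp6, Etv5 and, among the other ETS factors, Etv1 are the filled points. For Dusp6 and Etv5 this is shown as a description.

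**Figure D4:**
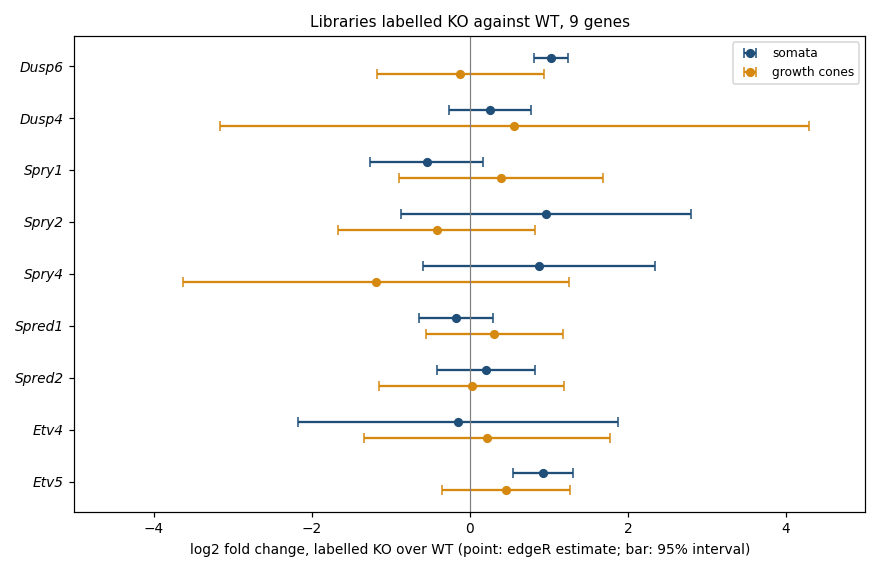
Log2 difference between libraries labelled KO and WT for the 9 genes, in somata and in growth cones; points are edgeR estimates and bars 95% intervals. In somata the intervals of Dusp6 and Etv5 lie above 0, which is shown as a description, and in growth cones all 9 intervals cross 0.

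In growth cones none of the 9 genes passed the test between labels, and the same held for the table as a whole: 0 of 15419 genes, or 0%, passed a false discovery rate of 0.05 in edgeR. Limma-voom also called 0 genes and DESeq2 called 11, none of them among the 9. At an unadjusted p under 0.05, 329 genes (2.13%) passed and 0 of the 9. Groups that did not overlap were seen in 0.48% of genes and in 0 of the 9. This contrast uses none of the soma libraries, but the 9 genes were chosen with earlier results of these data known.

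Dusp6 was at 26.7, 14.5, 27.8, 53.5 and 86.6 CPM in WT growth cones and at 39.6, 29.9, 18.9, 50.5 and 52.5 CPM in growth cones labelled KO. The WT libraries alone covered a 5.98-fold range, compared with 1.19-fold in WT somata, and the libraries of both labels were interleaved. The SD of log2 CPM of Dusp6 was 0.98 in WT growth cones and 0.11 in WT somata. Genes of like level also spread more in growth cones, with a median SD of 0.59 beside 0.27 in WT somata. The part of RNA input in the spread of Dusp6 was not tested. The log2 difference was -0.12 with a 95% interval of -1.18 to 0.93 (edgeR adjusted p = 0.999). Without WT growth cone library 11, the highest, it was 0.32.

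Etv5 was at 17.9, 21.6, 52.1, 41.9 and 25.2 CPM in WT growth cones and at 45.5, 50.7, 29.2, 55.6 and 34.9 CPM under the KO label. All KO-labelled values were above the 3 lowest WT libraries, and the groups overlapped. The log2 difference was 0.46 with an interval of -0.35 to 1.27 (edgeR adjusted p = 0.999). The 0.92 seen for Etv5 in somata lies inside that interval. For Dusp6 the upper bound of 0.93 lies just under the 1.03 seen in somata.

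Dusp4 and Spry4 had the widest intervals of the 9 genes. Dusp4 was at 0.166, 0, 8.07, 1.33 and 0.0319 CPM in WT growth cones and at 4.77, 1.09, 0.450, 7.53 and 0 CPM under the KO label. Only 2 WT and 4 KO-labelled growth cone libraries reached the minimum count level used as a filter, and the interval of the log2 difference ran from -3.16 to 4.29. Spry4 was at 23.6, 1.09, 10.04, 5.54 and 5.05 CPM in WT and at 1.82, 0.506, 7.55, 9.45 and 0.225 CPM under the KO label, with a log2 difference of -1.19 and an interval of -3.63 to 1.25. Both genes varied widely among the libraries of each label.

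Spry1 gave 0.39 (95% interval -0.90 to 1.68), Spry2 -0.42 (-1.67 to 0.83), Spred1 0.31 (-0.56 to 1.18), Spred2 0.02 (-1.14 to 1.19) and Etv4 0.22 (-1.34 to 1.78) on the log2 scale, each with an edgeR adjusted p of 0.999. In Spry1 a single WT library, number 7, reached 40.7 CPM while the other WT libraries were at 8.20 to 12.05 CPM. Of the wider pathway, 0 of 26 core genes, 0 of 19 receptors, 0 of 15 ligands, 0 of 16 immediate early genes, 0 of 10 other delayed targets, 0 of 6 other phosphatases and 0 of 13 other ETS factors passed in growth cones. The medians of these 7 lists ran from -0.25 to 0.12 beside 0.01 over all genes tested. No gene of a cell type marker list passed either, and the medians of those lists ran from -0.30 to 0.34.

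Whether the label acted differently in growth cones and somata was tested with the interaction term over all 20 libraries. It shares the soma libraries of the contrast taken as the source of the group. Of 17645 genes, 7 passed (0.0397%), and 0 of the 9; at an unadjusted p under 0.05, 6.98% of genes passed and 1 of the 9, Dusp6. DESeq2 called 262 genes and limma-voom 5, with 0 of the 9 in either. The label effect on Dusp6 was lower in growth cones than in somata by 1.16 on the log2 scale (interaction -1.16 ± 0.49, edgeR adjusted p = 0.622). For Etv5 the interaction was -0.48 ± 0.39 (edgeR adjusted p = 0.987), and neither gene passed. For Etv1 it was -2.01 ± 0.44 and did not pass in edgeR (adjusted p = 0.15). It was past the threshold in 2 of the alternatives, DESeq2 (adjusted p = 0.00125) and edgeR without growth cone library 10 labelled KO (adjusted p = 0.0441), and the adjusted p was at most 0.637, with the replicate block. A label effect particular to somata was not shown for any of the 9 genes at this threshold.

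Growth cones and somata of WT neurons differed in 3 of the 9 genes: the ERK inhibitor Spry2 and the ETS factor Etv4 were higher in growth cones, and Etv5 was lower. Such differences were common, since 42.8% of the 15128 genes tested passed, 23.1% with a higher and 19.7% with a lower level in growth cones. Under the KO label 5 of the 9 passed, Etv4, Spry1 and Spry2 with a higher level in growth cones and Dusp6 and Etv5 with a lower one, where 38.6% of 15410 genes passed (21.6% higher, 17% lower). These shares of the group are to be read against those backgrounds. Both comparisons use soma libraries of the genotype contrast above, and the high Dusp6 and Etv5 values of the KO-labelled somata enter the second directly.

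Etv4 was at 8.56, 16.5, 19.9, 11.8 and 18.5 CPM in WT growth cones and at 1.16, 3.15, 1.85, 0 and 1.78 CPM in WT somata. Each growth cone library was above each soma library, and the log2 difference was 3.29 ± 0.98 (edgeR adjusted p = 0.0172). Only 4 WT soma libraries reached the minimum count level used as a filter, against 5 WT growth cone libraries. Growth cones labelled KO were at 39.3, 4.85, 12.7, 1.99 and 29.8 CPM and somata at 0.970, 1.26, 1.79, 1.21 and 1.96 CPM. The lowest growth cone library was only just above the highest soma library, and the log2 difference was 3.70 ± 0.83 (edgeR adjusted p = 0.00397).

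Spry2 was at 19.1, 13.6, 14.1, 9.12 and 7.86 CPM in WT growth cones and at 0.752, 0.267, 0.455, 2.72 and 0.115 CPM in WT somata. The groups were far apart, with a log2 difference of 3.91 ± 0.88 (edgeR adjusted p = 0.00366). Only 3 WT soma libraries reached the minimum count level used as a filter, against 5 WT growth cone libraries. Without WT soma library 25, the highest soma value, the difference was 5.09. KO-labelled growth cones were at 7.59, 9.04, 16.6, 9.61 and 4.23 CPM and somata at 2.02, 1.47, 1.995, 2.60 and 0.373 CPM, again without overlap, with a log2 difference of 2.55 ± 0.70 (edgeR adjusted p = 0.0125).

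Spry1 was at 40.7, 12.05, 10.04, 8.20 and 8.91 CPM in WT growth cones, next to 7.22 to 9.39 CPM in WT somata. Apart from library 7 the growth cones were close to the somata, and the log2 difference of 1.06 ± 0.54 did not pass (edgeR adjusted p = 0.134); without library 7 it was 0.37. The growth cones labelled KO were at 27.7, 36.0, 12.4, 15.6 and 12.1 CPM, all above the 3.69 to 7.48 CPM of the somata, and the log2 difference of 2.01 ± 0.49 passed (edgeR adjusted p = 0.00638). The interaction did not separate these differences (0.92 ± 0.67, edgeR adjusted p = 0.961).

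Dusp6 went the other way. In WT the growth cone values of 14.5 to 86.6 CPM overlapped the soma values of 74.7 to 88.9 CPM through WT library 11, with a log2 difference of -0.89 ± 0.40 that did not pass (edgeR adjusted p = 0.0929). Without library 11 it was -1.35 and passed (edgeR adjusted p = 0.00743). With the KO label, growth cones stood at 18.9 to 52.5 CPM and somata at 153 to 185 CPM, with no overlap, and the log2 difference was -2.02 ± 0.26 (edgeR adjusted p = 9.6e-05). Those soma values are the ones that brought the group forward, so the difference under the KO label is a description and its p-value is no independent support.

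Etv5 in WT was at 17.9 to 52.1 CPM in growth cones and 47.0 to 74.8 CPM in somata. One growth cone library reached into the soma range, and the log2 difference was -0.86 ± 0.32 (edgeR adjusted p = 0.0446). That call was fragile: it held in 2 of 10 fits with 1 library left out and in 5 of 19 alternatives, and was lost under each other scaling (-0.65 to -0.78). For the KO-labelled libraries the values were 29.2 to 55.6 CPM and 81.3 to 145 CPM, without overlap, and the log2 difference was -1.31 ± 0.22 (edgeR adjusted p = 0.000748). As for Dusp6, the KO-labelled soma values belong to the contrast taken as the source of the group, so this too is a description.

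Dusp4 was lower in each growth cone library, at most 8.07 CPM in WT and 7.53 CPM under the KO label, than in any soma library of the same label, at least 11.8 and 20.4 CPM. The log2 difference was -3.20 ± 1.34 in WT (edgeR adjusted p = 0.0739) and -2.90 ± 1.07 under the KO label (edgeR adjusted p = 0.0511). Neither passed, and groups that do not overlap were seen in 37.6% of genes in WT and 36.2% under the KO label. DESeq2 and limma-voom called Dusp4 in both comparisons (adjusted p 0.00171 to 0.0183). Its level in growth cones rests on 0 to 245 counts per library, and only 2 WT and 4 KO-labelled growth cone libraries reached the filter's minimum.

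Spry4, Spred1 and Spred2 did not pass in either comparison. The log2 differences were 1.35 ± 0.86 and -0.73 ± 1.00 for Spry4, -0.19 ± 0.34 and 0.30 ± 0.31 for Spred1, and 0.87 ± 0.49 and 0.68 ± 0.42 for Spred2, in WT and under the KO label. Spred1 had 95% intervals of -0.92 to 0.55 and -0.37 to 0.97, and Spry4 had wider ones, -0.52 to 3.21 and -2.93 to 1.47.

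**Figure D5:**
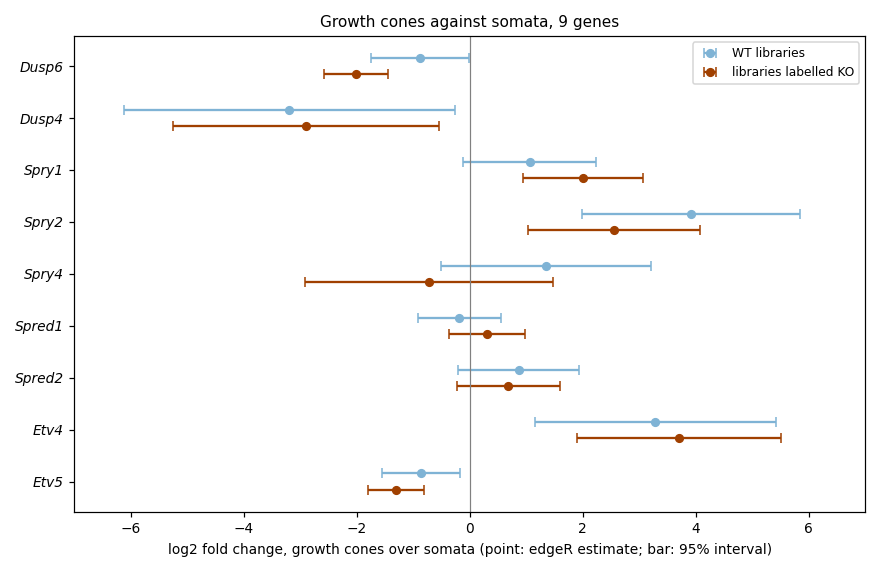
Log2 difference between growth cones and somata for the 9 genes, in WT and in libraries labelled KO; points are edgeR estimates and bars 95% intervals. With both labels the intervals of Etv4 and Spry2 lie above 0 and those of Etv5, Dusp6 and Dusp4 below 0. Dusp4, which did not pass with either label, has the widest intervals among the genes below 0, and Dusp6 did not pass in WT.

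The growth cone libraries also carried markers of other cells. In WT the 10 astrocyte markers summed to 769 to 1058 CPM in growth cones and 24.3 to 210.1 CPM in somata, progenitor markers to 1257 to 2076 and 36.4 to 138 CPM, oligodendrocyte lineage markers to 472 to 2133 and 59.9 to 109.8 CPM, and interneuron markers to 659 to 904 and 121 to 202 CPM. Of the tested genes, 9 of 10, 9 of 9, 7 of 10 and 8 of 9 passed with a higher level in growth cones. In the libraries labelled KO, 7 of 10, 8 of 10, 5 of 8 and 9 of 10 passed in that direction. The remaining interneuron marker, Npy, passed there with a lower level in growth cones. Hox genes of the hindbrain and spinal cord summed to 92.5 to 170.1 CPM in WT growth cones and to at most 0.219 CPM in a soma library, with 7 of 7 and 6 of 6 tested passing. Microglia markers gave 1 higher and 1 lower of 9 in WT and 1 higher of 9 under the KO label, vascular markers 2 of 7 and 3 of 8, all higher, and projection neuron markers 1 higher and 6 lower of 10, then 2 and 6. None of the markers of the astrocyte, progenitor, oligodendrocyte, interneuron and Hox lists was at 0 in all growth cone libraries of a label. Their part in the higher Etv4, Spry2 and Spry1 of growth cones was not tested.

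Depth also differed. All growth cone libraries labelled KO had fewer counts than any soma library labelled KO, so depth and compartment cannot be told apart there, and with the log2 library total as a covariate none of the 9 passed (adjusted p 0.109 or more for the 5 genes that had). In WT, Etv4 (adjusted p = 0.04) and Spry2 (adjusted p = 0.00178) still passed in edgeR with that covariate.

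Other members of the pathway moved in both directions between compartments. Of the 26 core genes, 6 rose and 6 fell from WT somata to WT growth cones, including Hras (2.51 ± 0.15 on the log2 scale), the adaptor Frs3 (1.82 ± 0.28) and the RAF kinase Araf (0.92 ± 0.16) on the higher side. The KO-labelled libraries gave 6 and 4, again with Hras (2.56 ± 0.15), Frs3 (2.32 ± 0.26), and Mapk3 (1.24 ± 0.14), a kinase gene of the cascade, on the higher side. Over all genes the medians were 0.07 and 0.11, and upper-quartile scaling moved them to 0.28 and 0.31.

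Among receptors, 4 were higher and 4 lower of 18 tested in WT. Fgfr1 (3.25 ± 0.44) and Fgfr3 (2.74 ± 0.60), which encode FGF receptors, were higher, and the neurotrophin receptor gene Ntrk2 (-1.90 ± 0.24) and Flrt2 (-1.66 ± 0.31) were lower. With the KO label 4 were higher and 2 lower of 19, with Fgfr3 at 2.35 ± 0.41, Ntrk2 at -2.46 ± 0.26 and Flrt2 at -1.04 ± 0.21. Fgfr3 also stands in the astrocyte list. Of the ligands 9 were higher and 1 lower of 14 in WT, with Pdgfa at 1.81 ± 0.19 and Fgf9 at 2.99 ± 0.56, and 5 were higher and 1 lower of 16 under the KO label, with Pdgfa at 1.93 ± 0.28 and Fgf9 at 2.89 ± 0.40.

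Among downstream genes, 5 of 18 immediate early genes were higher and 1 lower in WT, namely Myc (-2.58 ± 0.28); Ier3 (4.48 ± 1.39), Fosl2 (2.65 ± 0.56) and Nr4a2 (1.75 ± 0.41) were on the higher side. Under the KO label 3 were higher and 1 lower of 17. Of the other delayed targets Phlda1 was higher with both labels (5.53 ± 0.48 and 4.50 ± 0.60), Dusp5 in WT (2.82 ± 0.97), and Epha4 (-0.57 ± 0.15) and Bhlhe40 (-1.44 ± 0.49) were lower under the KO label. Of the other MAP kinase phosphatases Dusp2 was higher with both labels (1.62 ± 0.38 and 1.56 ± 0.45), and Dusp1 was lower in WT (-1.07 ± 0.34). Of the other ETS factors, Elk3 was higher in WT (3.69 ± 1.23) and 4 were lower under the KO label: Etv1 (-2.58 ± 0.29), Ets2 (-1.30 ± 0.22), Ets1 (-4.07 ± 1.07) and Gabpa (-1.50 ± 0.43).

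The genes whose pattern over the 20 libraries was nearest to that of Dusp6, by the root mean square difference of centred log2 CPM among 10728 genes, were Gpd1l (0.48), Slc25a22 (0.50), Lix1 (0.50), Dbpht2 (0.51) and Map2k4 (0.52). Etv5 was the nearest of the other 8 genes described here, at 0.63, and ranked 92 among all candidates. The nearest gene to Etv5 was Rcc2 (0.42), to Spred1 Tfam (0.37), to Spred2 Acsf3 (0.42) and to Spry1 Adipor1 (0.48). Spry2 lay nearest to Usf2 (0.81), Dusp4 to Echdc1 (1.04), Spry4 to Ero1lb (1.13) and Etv4 to Pcbd1 (1.14), at larger distances. All 20 libraries share the split into compartments, which enters each of these distances, and they are given as a description.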

How the data were processed

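The deposited table holds unscaled counts of reads for 55487 genes in 20 libraries and was used as it stands. Per the submitters' processing notes, reads passed through Trimmomatic 0.39, STAR 2.7.1a and featureCounts 1.5.0 with build GRCm39. The exon coordinates of 98.1% of genes (all 9 described) are those of GENCODE M21, which is on GRCm38. Use of strand is not given in the sources used here. Libraries were grouped by title. Symbols came from a table of gene identifiers, and 55141 genes matched.

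Each comparison was fitted on the whole table with edgeR 4.0.16 (quasi-likelihood F test, filterByExpr with a minimum count of 10, TMM) on the groups compared. Benjamini-Hochberg adjustment over all genes tested was used with a threshold of 0.05, in R 4.3.3. All 9 genes passed the filter in each comparison, some through the group where they were high. In WT growth cones against somata, 3 soma libraries reached the minimum for Spry2 and 4 for Etv4, against 5 growth cone libraries for each. For Dusp4, 2 growth cone libraries reached it, against 5 soma libraries. Alternatives used DESeq2 1.42.0, limma 3.58.1, other scalings and filters, a depth covariate, a replicate block and libraries left out. Replicates differed by far more than sampling noise (smallest chi-square per degree of freedom 52.7).

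The 9 genes and all gene lists were chosen with earlier results of these data known. Beyond the 9, up to 4 genes per list and comparison were named, by lowest p among those past the threshold. One gene that this rule names is not reported here. For pattern likeness, the 5 genes nearest to Dusp6 and the nearest to each other gene were named. Of the 13 other delayed targets, 12 matched the table.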

Additional observations from a re-analysis of the deposited data

Results flagged for a closer look

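In 2 of the 36 sets of 5 libraries (9 genes in 4 groups), 1 library lay apart by more than Dixon's 95% critical value of 0.71; chance gives about 1 in 20. Spry1 in WT growth cones was highest in library 7, at 40.7 CPM, and the gap to the next library was 0.764 of the group's range. Spred2 in WT somata was highest in library 22, at 21.9 CPM, the other 4 libraries lying between 11.2 and 11.5 CPM. Its gap on the same log2 scale was 0.955 of the range.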

How the results depend on the processing

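The fold changes of the 9 genes and Etv1 in the 5 comparisons were followed, 50 in all. Of the 12 past the threshold, none changed sign in the alternatives run; over all 50, 41 of 1070 alternatives did. The count of the 9 genes past the threshold moved as follows. In somata it was 2 higher, and 1 with no low-count filter, the library-total covariate or the replicate block, 0 with all 20 libraries in the fit, and 1 to 2 with a library left out. As above, nothing is read from these soma counts. In WT growth cones against somata the lower count of 1 became 0 under DESeq2 size factors, upper-quartile scaling, library totals alone, no filter, a minimum count of 30 and the covariate, 2 with DESeq2's test or all 20 libraries, 3 with limma-voom and 0 to 2 with a library left out. Under the KO label the covariate took the counts of 3 higher and 2 lower to 0 and 0.

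Sign changes, in log2 units, were these. Growth cones by label: Spred2 -0.0048 (upper quartile), -0.011 (all 20), -0.45 (covariate); Dusp6 0.026 (voom), 0.058 (block); Etv4 -0.54 (voom), -0.47 (covariate), -0.44 (block); Spry2 0.15, Spry4 0.21 and Etv1 0.16 (covariate). With a library left out the ranges were -0.28 to 0.50 for Etv4, -0.35 to 0.32 for Dusp6, -0.32 to 2.83 for Dusp4, -0.37 to 0.32 for Spred2 and -0.56 to 0.038 for Etv1. Somata by label: Etv4 1.10 (voom), 0.49 (block), -0.47 to 0.26 with a library left out, and Spry2 -0.35 (covariate). Compartments: Spred1 in WT 0.020 (upper quartile) and -0.35 to 0.047 with a library left out; Spry4 2.41 and Spred2 -0.11 under the KO label (covariate). Interaction: Etv4 -1.58 (voom), -0.032 (covariate), -0.94 (block); Spry2 0.42 (covariate); Spred2 0.059 (block); with a library left out -0.59 to 2.55 for Dusp4, -0.14 to 0.67 for Etv4 and -0.59 to 0.093 for Spred2. The cause was not tested.

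Over all genes, calls in somata numbered 109, with 402 by DESeq2, 30 with all 20 libraries, 42 with the covariate and 34 with the block, and 67 to 107 with a library left out. The interaction gave 7, with 262 by DESeq2 and 0 with the covariate or the block. Under the KO label the covariate left 380 of 5948 compartment calls. Upper-quartile scaling split the compartment calls 3990 higher and 2347 lower in WT (3500 and 2976 with TMM) and 3784 and 2128 under the KO label (3328 and 2620 with TMM). The titles give each library a number after Exp, shared by a WT and a KO-labelled library of the same compartment except for 12 and 15 in somata; what a number stands for is not stated. Deviations of same-numbered libraries correlated at 0.0262 to 0.109 in growth cones (9 of 10 libraries best with their own number) and 0.0115 to 0.134 in somata (5 of 8). Some pairs were short of 0.1, so the block is an alternative and whether the numbers pair the libraries is unsettled. Under the block, the log2 difference in somata was 0.75 for Etv5 and 1.00 for Dusp6, given as a description. Etv1 there had an edgeR adjusted p of 0.0845. No paired analysis was possible between compartments because they share no numbers. Counts of 0 to 245 limit Dusp4 in growth cones, and 0 to 106 limit Etv4 and Spry2 in somata.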
